A study of Rattus norvegicus with 9 samples.

Results

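The 53 genes described here encode RNA polymerase I, the enzyme that transcribes ribosomal RNA, and the nucleolar factors that turn its transcript into ribosomal subunits. They were found among the 20442 genes of the expression table by their symbols: those of the Utp, Nop, Rrp and Polr1 families, 5 WD-repeat proteins (Wdr3, Wdr36, Wdr43, Wdr74 and Wdr75), and a fixed set of well-known factors such as Fbl, Ncl and Npm1. Dkc1, which the same definition names, was not among the symbols of these 20442 genes and was not analysed here. No value enters the match by symbol, but the family was selected on earlier results of these same FPKM values, with libraries of the same replicate number compared as pairs. The levels and the counts of genes called are therefore given as a description, and nothing is supported with them.

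RNA was sequenced from dendritic cells grown out of rat bone marrow (wild type, primary cells) in 10% serum with GM-CSF and IL-4 at 20 ng/mL each. LPS+EVs cultures (n = 3) received lipopolysaccharide (LPS, bacterial endotoxin) at 1 µg/mL together with extracellular vesicles (EVs) released by ASCs, LPS cultures (n = 3) received LPS alone, and Control cultures (n = 3) received neither. The protocol text, which is the same for every sample, gives 24 h of treatment and also 50 ng/mL of an agent it does not name. If only the treated cultures received that agent, its effect and that of LPS cannot be told apart. The EV dose is not given in the sources used here, and the series set out to find how the EVs act on dendritic cells. The replicates are labelled biological, but nothing says whether they came from separate animals. The p-values therefore set differences between groups against the spread between these cultures only. Depth was 32148734 to 39407293 reads in genes per library. Values are FPKM (reads per gene, divided by gene length and by library depth), so levels can be compared between genes. Among dendritic cell markers, Itgax stood at 29.8 to 52.0 FPKM and Cd74 at 939 to 6137 FPKM, while Flt3 was at most 0.108 FPKM and Zbtb46 at most 3.36 FPKM. The libraries numbered 2 stood apart from the others of their group, and results are given below with and without them.

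Making a ribosome starts in the nucleolus, where RNA polymerase I copies the ribosomal DNA into 1 long precursor. Small nucleolar ribonucleoproteins (snoRNPs) modify this precursor while a large assembly called the small-subunit processome folds and cuts it, and a separate set of factors builds the large subunit. The supply of these factors is known to follow growth and division, and the transcription factor Myc is a well-known activator of their genes through the E-box CACGTG. Dendritic cells that sense LPS are known to mature and to stop dividing.

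The genes fell into 5 roles: 8 RNA polymerase I subunits, 27 small-subunit factors, 6 snoRNP proteins, 10 large-subunit factors, and the abundant nucleolar proteins Ncl and Npm1. The annotation in the deposited table assigned the nucleolus to 44 of the 53 genes (83.02%), against 810 of all 20442 genes (3.96%). It assigned the small-subunit processome to 21 of the 53, of 38 genes in the whole table. RefSeq places the 53 genes on 19 chromosomes. In RefSeq, 5 of them (Ncl, Nop53, Nop56, Nop58 and Wdr43) hold 17 snoRNA genes within their bounds, so that host and guide RNA share a locus. RefSeq also lists pseudogenes named after 16 of the 53, with 20 for Npm1, 7 for Fbl, 6 for Pes1, and 5 each for Ncl and Nhp2. Another protein-coding gene overlaps 13 of the 53, one of which, Utp4, also has a pseudogene. How the authors' counting split reads between such copies or strands is not given in the sources used here, so levels of these genes carry that uncertainty.

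RefSeq promoters (250 bases before the start to 50 after it, build GRCr8) were matched for 50 of the 53 genes, and the motif CACGTG, which reads the same on both strands, was searched in them. It was present in 15 of 50 promoters (30%), against 29 of 110 promoters of other ribosome biogenesis genes (26.4%), 884 of 9125 promoters of all genes tested (9.7%) and 1826 of 27457 in the whole table (6.7%). The 15 promoters held 16 copies, of which 8 lay before the start and 5 within the last 100 bases before it. The Ets-type motif CCGGAAG, searched on both strands and chosen later, was in 25 of 50 promoters (50.0%), against 1768 of 9125 promoters of genes tested (19.4%). The TATA motif TATAAA, also on both strands, was in 5 of 50 (10.0%), against 620 of 9125 (6.8%). Median GC content was 55.7% in the 53 genes' promoters and 60.7% in those of all genes tested. A match describes the letters in the window and is not a measured binding site. The 250 bases before the start are shown for 3 genes described in full below that hold an E-box there, in capitals, and for 2 that hold none and whose log2 differences from Control were above 0. They lie on GRCr8 at chr1:88138770-88139019 (Polr1g, minus strand), chr14:83074096-83074345 (Pes1, plus strand), chr7:25102850-25103099 (Utp20, minus strand), chr20:1599920-1600169 (Polr1h, plus strand) and chr1:85765090-85765339 (Nop53, minus strand).
Polr1g: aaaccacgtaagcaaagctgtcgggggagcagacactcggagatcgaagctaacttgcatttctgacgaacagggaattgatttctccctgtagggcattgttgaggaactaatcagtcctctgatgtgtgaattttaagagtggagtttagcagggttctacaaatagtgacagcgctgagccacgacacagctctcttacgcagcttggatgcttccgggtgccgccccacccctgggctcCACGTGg
Pes1: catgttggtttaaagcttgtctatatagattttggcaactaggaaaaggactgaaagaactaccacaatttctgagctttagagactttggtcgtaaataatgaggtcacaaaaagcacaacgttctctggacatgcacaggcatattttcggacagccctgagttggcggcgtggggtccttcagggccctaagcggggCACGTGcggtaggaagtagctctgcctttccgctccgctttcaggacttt
Utp20: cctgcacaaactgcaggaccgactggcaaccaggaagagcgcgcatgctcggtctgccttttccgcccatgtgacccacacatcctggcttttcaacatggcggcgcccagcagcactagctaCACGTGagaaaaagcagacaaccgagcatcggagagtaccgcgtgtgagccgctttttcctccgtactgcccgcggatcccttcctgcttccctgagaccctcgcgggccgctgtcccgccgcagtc
Polr1h: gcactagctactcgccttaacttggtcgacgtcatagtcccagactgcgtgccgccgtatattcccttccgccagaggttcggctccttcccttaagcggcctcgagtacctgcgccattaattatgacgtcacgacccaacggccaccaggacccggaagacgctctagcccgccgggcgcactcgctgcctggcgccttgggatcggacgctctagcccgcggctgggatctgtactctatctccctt
Nop53: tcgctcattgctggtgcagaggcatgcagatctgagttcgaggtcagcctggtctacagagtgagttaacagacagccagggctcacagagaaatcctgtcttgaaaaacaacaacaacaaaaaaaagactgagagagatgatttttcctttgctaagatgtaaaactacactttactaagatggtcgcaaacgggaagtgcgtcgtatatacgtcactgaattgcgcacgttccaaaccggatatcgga
The E-box starts 7 bases before the start of Polr1g, 50 before that of Pes1 and 127 before that of Utp20. The 15 genes with an E-box had a median log2 difference of -1.38 in LPS against Control, and 11 of them were called lower. The 35 without one had a median of -1.05, and 26 were called lower, which is a description of 2 groups of unequal size. The share called lower was nearly the same in both, and of all genes tested 28.7% were called lower. The differences ranged from -2.25 to -0.53 with an E-box and from -2.65 to 0.17 without one. The 35 include Nhp2, which had the largest difference of the family in LPS against Control, and Gar1, which had the largest in LPS+EVs against Control. The next largest after Nhp2 in LPS against Control was that of Nop2 (-2.25), which holds an E-box. The 5 sequences shown were picked partly by these differences and do not stand for the 50.

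LPS against Control asks what the endotoxin changes, and here most of the family stood lower. Summed over the 53 genes, FPKM was 978, 686 and 1057 in LPS, against 2077, 1938 and 1939 in Control (libraries 1, 2 and 3). All 53 passed the filter on low values (1 FPKM in at least 3 of the 9 libraries), and each had 33 or more reads in every library. With limma on log2(FPKM + 1), 39 of 53 were called lower in LPS at an adjusted p under 0.05 and 0 were called higher, while 45 had an unadjusted p under 0.05, all lower, and limma-voom on recovered reads also called 0 higher. Of all 11141 genes tested, 28.7% were called lower and 12.3% higher. At an unadjusted p under 0.05 by limma, 3807 of the 11141 stood lower and 1781 higher. The median log2 difference was -1.14 over the 53 genes and -0.19 over all genes tested. It ranged from -2.65 for Nhp2 to 0.17 for Rrp36. In 46 genes every LPS library lay below every Control library (37.6% of all genes tested), and 48 were lower in LPS in all 3 pairs of the same number (45.8% of all genes tested). The count was 25 without the first Control library (19.9% of all genes tested were then called lower), 24 without the third (21.3%), and 46 with the replicate number as a block (35.5%).

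LPS+EVs against Control gave the same picture for the family, with the same Control libraries in use. The summed FPKM was 865, 681 and 966 in LPS+EVs, against 2077, 1938 and 1939 in Control. Here 42 of 53 were called lower by limma and 0 higher, with 47 at an unadjusted p under 0.05, all lower, and 0 higher by limma-voom as well. Of all genes tested, 30.8% were called lower and 13.5% higher. At an unadjusted p under 0.05 by limma, 4028 of the 11141 genes tested stood lower and 1849 higher. The median log2 difference was -1.41, with a range of -2.68 for Gar1 to 0.45 for Nop53, against -0.19 over all genes tested. In 49 genes every LPS+EVs library lay below every Control library (40.6% of all genes tested). In bulk RNA, fewer cells that express a gene and less of its RNA per cell cannot be told apart.

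**Figure D1:**
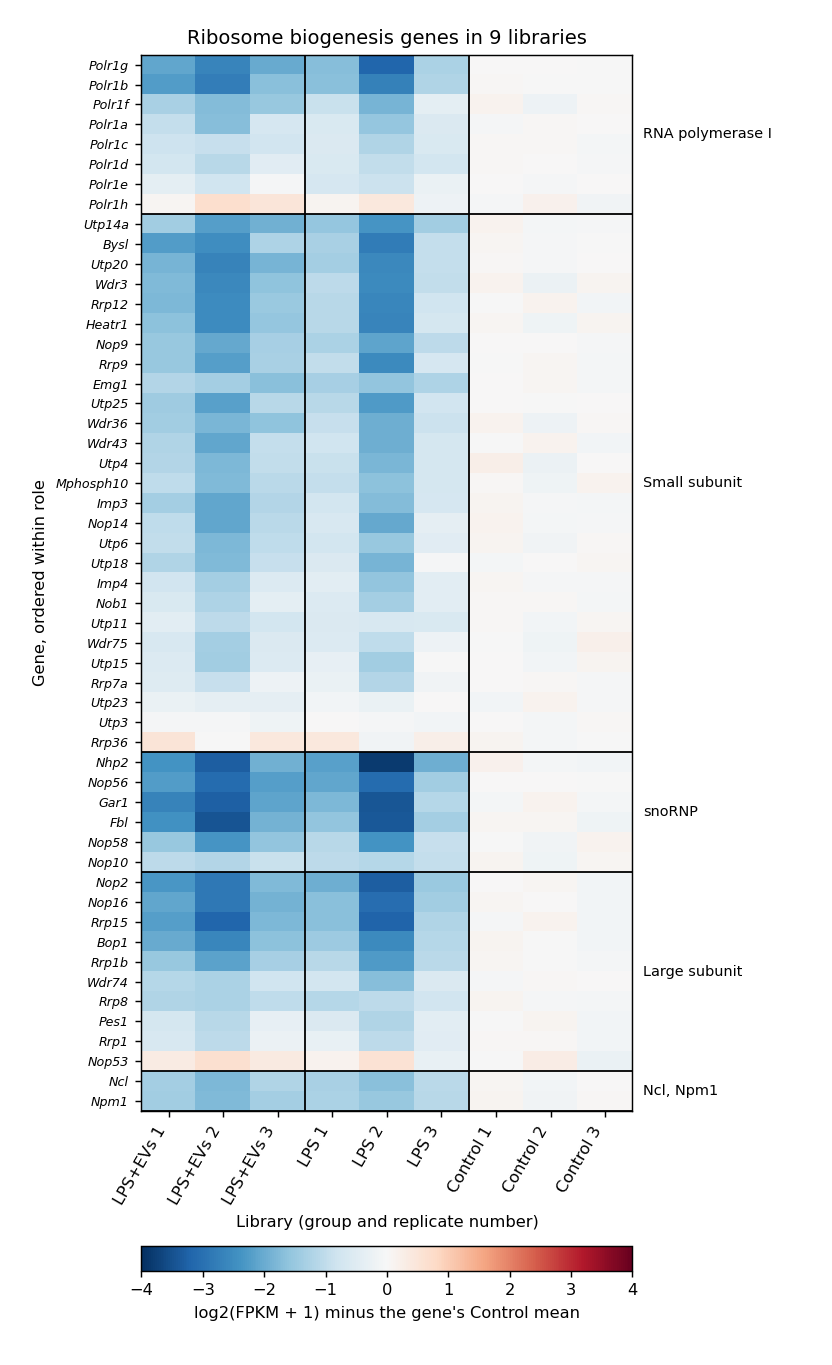
Log2(FPKM + 1) of each of the 53 genes minus its Control mean (colour), in each of the 9 libraries (columns, by group and replicate number), with genes in rows by role. Nearly all rows are below the Control mean in LPS+EVs and LPS, most of all in the libraries numbered 2, while Polr1h, Nop53 and Rrp36 are on average above it.

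Of the RNA polymerase I subunits, 6 of 8 were called lower in LPS against Control and the same number in LPS+EVs against Control. On the log2(FPKM + 1) scale, Polr1g, a subunit of the heterodimer particular to this polymerase, differed most from Control. It had 2.78, 1.56 and 3.0 FPKM in LPS+EVs, 3.98, 0.801 and 5.76 FPKM in LPS, and 15.3, 15.1 and 14.9 FPKM in Control. The treated groups did not overlap Control, and the second library of each was the lowest. The log2 difference was -2.04 (SE 0.43, 95% interval -3.01 to -1.06) in LPS against Control and -2.25 (SE 0.43) in LPS+EVs against Control. Polr1b, the second-largest catalytic subunit, had 1.02, 0.4 and 1.98 FPKM in LPS+EVs, 1.99, 0.454 and 3.06 FPKM in LPS, and 8.76, 8.24 and 8.3 FPKM in Control, a mean 7.43-fold lower in LPS+EVs and 4.6-fold lower in LPS. Polr1a, the largest catalytic subunit, was 1.91-fold lower in LPS than in Control.

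Polr1c and Polr1d, which RNA polymerase I shares with RNA polymerase III, stood lower by less than Polr1g and Polr1b. The same held for Polr1a and Polr1e, so this was not particular to the shared subunits. Polr1d had 37.9, 28.8 and 46.7 FPKM in LPS+EVs, 41.7, 31.7 and 37.9 FPKM in LPS, and 65.7, 64.3 and 61.2 FPKM in Control, a log2 difference of -0.77 (SE 0.18, 95% interval -1.18 to -0.37) in LPS against Control. Its groups did not overlap Control either. Polr1f, part of the stalk of the enzyme, had 1.97, 1.17 and 1.56 FPKM in LPS+EVs, 2.9, 1.01 and 4.52 FPKM in LPS, and 7.11, 5.29 and 6.59 FPKM in Control. Its difference in LPS against Control was -1.05 (SE 0.33) and was not called in 6 of the alternatives run, and in LPS+EVs against Control it was -1.52 (SE 0.33).

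Polr1h, the small subunit that helps the polymerase to cleave the RNA when it backtracks, did not stand lower. It had 30.6, 46.1 and 40.1 FPKM in LPS+EVs, 31, 39.0 and 25 FPKM in LPS, and 27.8, 32.6 and 26.0 FPKM in Control. The groups overlapped, and the log2 difference was 0.11 (95% interval -0.34 to 0.57) in LPS against Control and 0.41 (95% interval -0.04 to 0.86) in LPS+EVs against Control. With the replicate number as a block, LPS+EVs against Control was called higher. In RefSeq the gene overlaps Znrd1as1, and reads of the 2 genes may not be separated. The remaining subunit, Polr1e, had a log2 difference of -0.61 (95% interval -1.1 to -0.11) in LPS against Control and -0.41 (95% interval -0.91 to 0.08) in LPS+EVs against Control, and neither was called, while the replicate block called it lower in LPS against Control.

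The 6 snoRNP proteins stood lowest of all roles relative to Control: 6 of 6 were called lower in LPS (median log2 difference -2.12) and 6 of 6 in LPS+EVs (median -2.52). Fbl, the enzyme that methylates ribosomal RNA in box C/D snoRNPs, had 16.1, 7.5 and 24.2 FPKM in LPS+EVs, 29.7, 7.8 and 34.7 FPKM in LPS, and 97.6, 96 and 81.8 FPKM in Control. No treated library reached Control, and the second libraries held under 10 FPKM. The difference was -2.12 (SE 0.54, 95% interval -3.36 to -0.88) in LPS against Control and -2.59 (SE 0.54) in LPS+EVs against Control. Its scaffold partners Nop56 and Nop58 were 4.38-fold and 2.65-fold lower in LPS than in Control.

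Nhp2, a core protein of the H/ACA snoRNPs that turn uridines of ribosomal RNA into pseudouridines, had 20.2, 10.4 and 28.0 FPKM in LPS+EVs, 23.5, 6.86 and 27.4 FPKM in LPS, and 125, 105 and 101 FPKM in Control. This was the largest difference of the family in LPS against Control, at -2.65 (SE 0.49, 95% interval -3.77 to -1.53), or a 5.72-fold lower mean. Gar1, from the same particle, had 1.84, 0.874 and 3.17 FPKM in LPS+EVs, 4.15, 0.665 and 7.14 FPKM in LPS, and 16.2, 18.8 and 16.2 FPKM in Control. It had the largest difference in LPS+EVs against Control, -2.68 (SE 0.53, 95% interval -3.88 to -1.48). Nop10, the smallest protein of that particle, differed less, with 30, 26.9 and 33.4 FPKM in LPS+EVs, 29.9, 28.0 and 32 FPKM in LPS, and 67.0, 55.4 and 65.5 FPKM in Control. Its treated libraries also differed little from each other, and its difference was -1.04 (SE 0.12) in LPS against Control.

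Of the 27 small-subunit factors, 17 were called lower in LPS against Control (median log2 difference -1.1) and 20 in LPS+EVs against Control (median -1.38). Utp14a, which in yeast activates a helicase of the processome, had 4.56, 2.17 and 2.89 FPKM in LPS+EVs, 4.0, 1.83 and 4.59 FPKM in LPS, and 15.2, 12.7 and 13 FPKM in Control, and differed most of this role in LPS against Control (-1.76, SE 0.29). Utp20, a long scaffold protein of the processome, differed most in LPS+EVs against Control (-2.13, SE 0.4), with 1.42, 0.357 and 1.41 FPKM in LPS+EVs, 2.42, 0.464 and 3.51 FPKM in LPS, and 7.98, 7.38 and 7.8 FPKM in Control. In both genes all treated libraries were below all Control libraries. Means of Bysl, Wdr3, Rrp12 and Heatr1 were 2.84-fold to 3.08-fold lower in LPS than in Control.

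The 2 small-subunit factors with the highest levels, Imp4 and Nob1, were not called in either comparison with Control, although their groups did not overlap it. Imp4, which in yeast helps a guide snoRNA to pair with the precursor, had 30.3, 19.5 and 35.2 FPKM in LPS+EVs, 38.7, 16.9 and 38.5 FPKM in LPS, and 55.1, 50.5 and 50.2 FPKM in Control (log2 difference in LPS against Control -0.8, 95% interval -1.53 to -0.07). Nob1, the nuclease that makes the last cut of the small-subunit RNA, had 24.0, 15.2 and 27.6 FPKM in LPS+EVs, 25, 13.9 and 27.0 FPKM in LPS, and 38.1, 38.0 and 34.5 FPKM in Control (log2 difference -0.77, 95% interval -1.4 to -0.15). Both were called lower in both comparisons with the replicate number as a block.

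A few processome genes differed little between groups. Utp3 was nearly flat across all 9 libraries, with 24.5, 24.5 and 22.5 FPKM in LPS+EVs, 25.6, 24.5 and 23.6 FPKM in LPS, and 25.8, 23.9 and 26.4 FPKM in Control, and its log2 difference in LPS against Control was -0.04 (95% interval -0.26 to 0.18). Utp23 had 3.25, 3.0 and 3.01 FPKM in LPS+EVs, 3.72, 3.3 and 4.19 FPKM in LPS, and 3.8, 4.71 and 3.95 FPKM in Control. Its LPS+EVs libraries were below all others, by little, and its log2 difference in LPS+EVs against Control was -0.33 (95% interval -0.63 to -0.03) and was not called. Rrp36, which in yeast is needed for the early cuts of the precursor, had 15, 10.1 and 14.0 FPKM in LPS+EVs, 14.1, 9.22 and 12.1 FPKM in LPS, and 11, 9.52 and 10.2 FPKM in Control. Its groups overlapped and its log2 difference in LPS+EVs against Control was 0.3 (95% interval -0.12 to 0.73), which was called higher with median-of-ratios scaling.

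Of the 10 large-subunit factors, 8 were called lower in each comparison with Control. Nop2, which methylates the large-subunit RNA, had 4.89, 3.08 and 7.83 FPKM in LPS+EVs, 6.66, 2.01 and 9.65 FPKM in LPS, and 29.5, 30.3 and 26.9 FPKM in Control, a difference of -2.25 (SE 0.44, 95% interval -3.26 to -1.25) in LPS against Control. Rrp15, which is needed to make the large subunit, had 4.38, 1.72 and 6.09 FPKM in LPS+EVs, 6.76, 1.69 and 9.59 FPKM in LPS, and 23.0, 26.4 and 21.7 FPKM in Control, a difference of -2.39 (SE 0.51) in LPS+EVs against Control. For both genes the highest treated library held less than the lowest Control library.

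Pes1 and Bop1 belong to 1 complex that processes the precursor of the large subunit, and their differences were unequal in size. Bop1 had 6.49, 3.94 and 8.74 FPKM in LPS+EVs, 10.1, 4.14 and 12.7 FPKM in LPS, and 31.9, 29.1 and 26.8 FPKM in Control, a difference of -1.71 (SE 0.37) in LPS against Control. Pes1 had 34.4, 25.9 and 45.6 FPKM in LPS+EVs, 37.8, 24.1 and 42.6 FPKM in LPS, and 57.1, 61.2 and 53.5 FPKM in Control, a difference of -0.74 (SE 0.24). The call of Pes1 was lost in 7 of the alternatives run for LPS against Control and in 8 of those for LPS+EVs against Control.

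Nop53, which in yeast brings the helicase of the RNA exosome to the large-subunit precursor, had the highest level of this role and did not stand lower. It had 95.2, 118 and 95.9 FPKM in LPS+EVs, 83.8, 113 and 60.4 FPKM in LPS, and 74.9, 91.5 and 61.8 FPKM in Control. All LPS+EVs libraries were above all Control libraries (19.6% of all genes tested), while LPS and Control overlapped. Its log2 difference in LPS+EVs against Control was 0.45 (SE 0.23, 95% interval -0.08 to 0.98), called higher only with the replicate number as a block, alone or with median-of-ratios scaling, among the alternatives run for named genes. Its library numbered 2 was the highest in each group.

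The 2 abundant nucleolar proteins had the highest levels of the family. Npm1, a chaperone of nucleolar assembly, had 146, 112 and 149 FPKM in LPS+EVs, 158, 132 and 177 FPKM in LPS, and 408, 350 and 391 FPKM in Control. Ncl, which binds the nascent precursor, had 97.7, 71.9 and 108 FPKM in LPS+EVs, 102, 78.7 and 120 FPKM in LPS, and 267, 235 and 255 FPKM in Control. Both were less than 3-fold lower with little spread: the difference in LPS against Control was -1.3 (SE 0.15) for Npm1 and -1.34 (SE 0.19) for Ncl, and in LPS+EVs against Control -1.5 (SE 0.15) and -1.46 (SE 0.19).

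**Figure D2:**
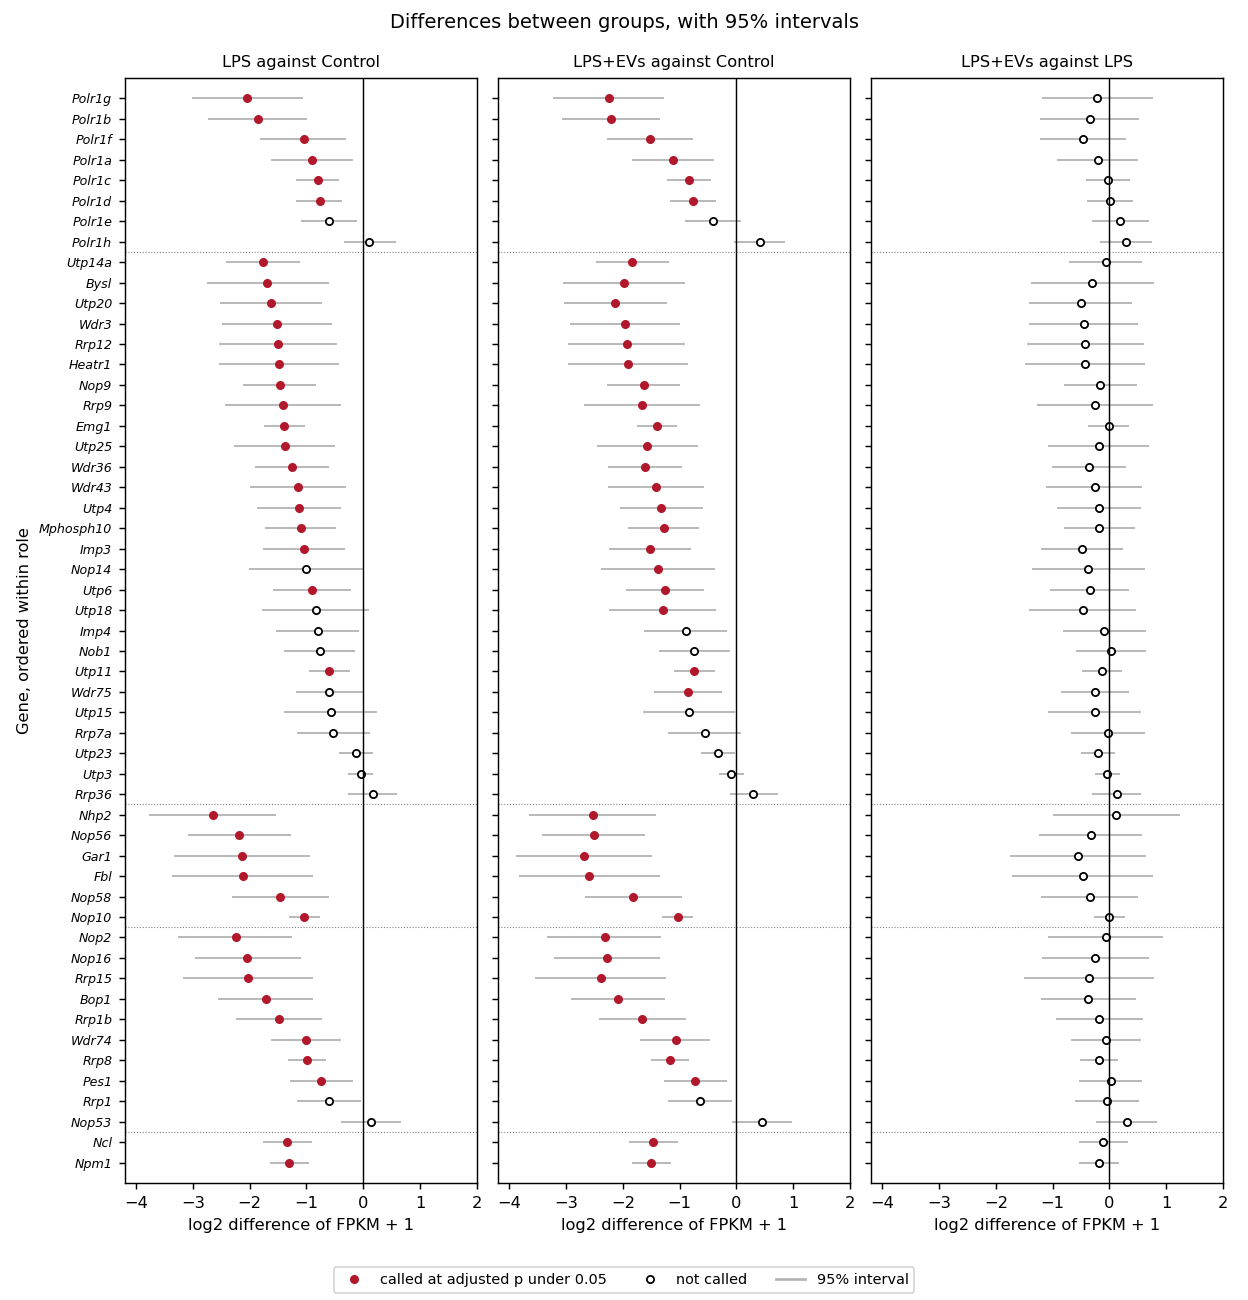
Log2 differences of FPKM + 1 (x axis) with 95% intervals for the 53 genes (rows, by role, dotted lines between roles) in LPS against Control, LPS+EVs against Control and LPS+EVs against LPS, with called genes filled. The 2 comparisons with Control hold 39 and 42 filled points, all left of 0, and the comparison of LPS+EVs with LPS holds none.

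LPS+EVs against LPS asks what the vesicles add, and no gene of the family was called. Limma called 0 of 53 in either direction, 0 had an unadjusted p under 0.05, and 0 were called with the replicate block or with limma-voom on recovered reads. Of all 11141 genes tested, 0% were called (0 genes), and 295 had an unadjusted p under 0.05 (158 lower and 137 higher). Log2 differences lay below 0 in 44 of the 53 genes, and in 5750 of all 11141 genes tested. The median log2 difference of the 53 genes was -0.19, against -0.01 over all genes tested. It ranged from -0.55 for Gar1 (95% interval -1.75 to 0.65) to 0.3 for Nop53 (95% interval -0.23 to 0.83). For some genes that varied less between libraries of a group the intervals were narrower. They ran from -0.26 to 0.18 for Utp3, from -0.28 to 0.28 for Nop10 and from -0.54 to 0.16 for Npm1. For Fbl the interval ran from -1.71 to 0.77, so a level 2-fold lower in LPS+EVs lies within it. All these intervals come from the fit without the replicate block and do not use the pairing. Spread shared by libraries of the same number can therefore widen them, and no interval with the block is given here.

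The pairs of the same number did not run alike in that comparison. In pair 1, 46 of 53 genes were lower in LPS+EVs than in LPS (86.8%, median log2 difference -0.32), against 57.6% of all genes tested. In pair 3, 43 of 53 were lower (81.1%, median -0.34), against 51.3% of all genes tested. In pair 2, 21 of 53 were lower (39.6%, median 0.06), against 42.7% of all genes tested. Over all 3 pairs, 18 genes were lower in each (16.8% of all genes tested were), among them Fbl, Npm1, Ncl, Polr1b and Utp20. The 3 that were higher in each were Nop53, Polr1e and Rrp36, while 16.7% of all genes tested were. Utp23 was the single gene whose LPS+EVs libraries all lay below its LPS libraries (3.48% of all genes tested), and none lay wholly above (3.14% of all genes tested). The median over the 53 genes went to 0.03 without the third LPS library, to 0.02 without the second LPS+EVs library, and to -0.52 without the second LPS library. With the libraries numbered 2 left out of all groups, it was -0.3 and 0 genes were called.

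**Figure D3:**
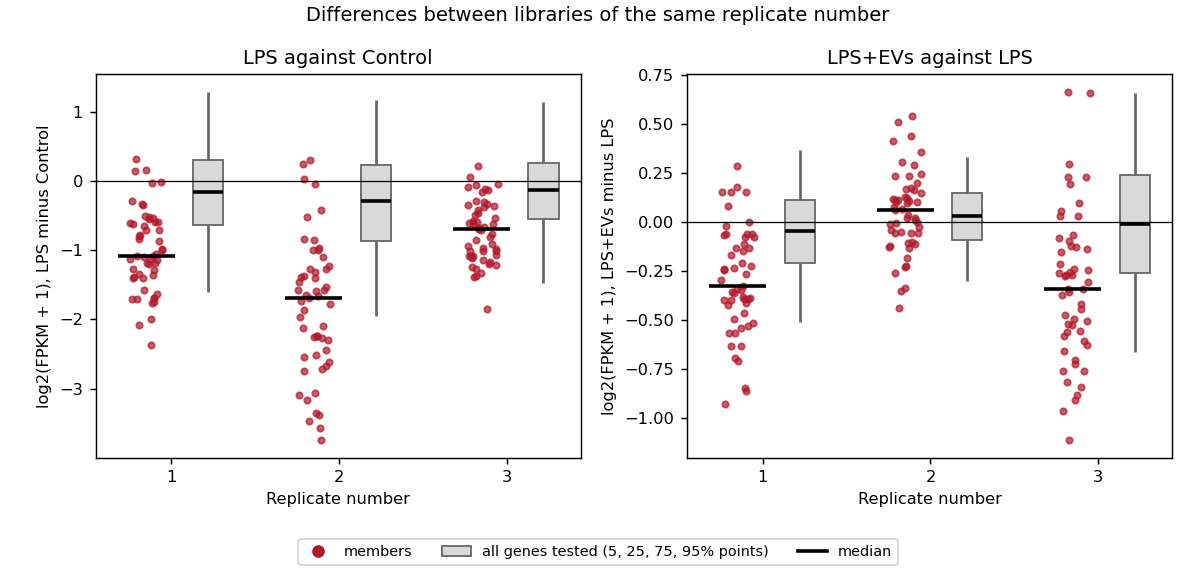
Log2(FPKM + 1) differences between libraries of the same replicate number (x axis), LPS minus Control on the left and LPS+EVs minus LPS on the right, with 1 point for each of the 53 genes and boxes for all genes tested. On the left the family's median lies below the box in each pair, and on the right the medians are -0.32, 0.06 and -0.34 in pairs 1, 2 and 3.

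The family varied widely between treated cultures and little between Control cultures. The median SD of log2(FPKM + 1) over the 53 genes was 0.43 in LPS+EVs, 0.6 in LPS and 0.1 in Control, against 0.22, 0.26 and 0.14 over all genes tested. In LPS+EVs and in LPS, library 2 was the lowest of its group in 49 of 53 genes (92.5%), against 50.8% of all genes tested in LPS+EVs and 54.2% in LPS. In Control it was the lowest in 23 of 53 (43.4%), against 41.3% of all genes tested. The median gap of library 2 to the mean of the other two was -0.72 in LPS+EVs, -1.02 in LPS and -0.04 in Control. The libraries numbered 2 also differed in other ways. Their summed dendritic cell markers stood at 8303 FPKM in LPS+EVs, 7964 FPKM in LPS and 9219 FPKM in Control, against 1182 to 3245 FPKM in the other libraries. Most of that sum was Cd74 (6102, 5855 and 6137 FPKM in those libraries) and the class II genes, while Itgax in library 2 (37.2 FPKM in LPS+EVs, 36.9 in LPS and 52.0 in Control) stood above the others of its group by little in LPS+EVs and not at all in LPS. Their summed stromal markers (7 genes) stood at 123, 84.8 and 143 FPKM in those groups, against 351 to 808 FPKM in the other libraries. The part of these differences in the results was not tested. Without the libraries numbered 2, 41 of the 53 genes were called lower in LPS against Control (28.8% of all genes tested) and 45 in LPS+EVs against Control (31.9%), with medians of -0.92 and -1.27.

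Other genes of ribosome biogenesis followed the same direction. The list holds 126 genes, with 125 in the table and 123 tested. In LPS against Control, 73 were called lower (59.3%, against 28.7% of all genes tested) and 3 higher (2.44%, against 12.3%), with a median log2 difference of -0.88. Leaving out single Control libraries lowered the first count to 38 without library 1 (19.9% of all genes tested), 48 without library 2 and 43 without library 3 (21.3%). In LPS+EVs against Control, 87 were called lower (70.7%, against 30.8% of all genes tested) and 3 higher (2.44%, against 13.5%), with a median of -1.09. In LPS+EVs against LPS, 0 were called by limma and 0 by limma-voom, with 2 at an unadjusted p under 0.05. Exosc5, a core protein of the RNA exosome, had 5.15, 3.11 and 6.36 FPKM in LPS+EVs, 5.73, 2.02 and 7.21 FPKM in LPS, and 31.9, 26.6 and 22.9 FPKM in Control, a log2 difference of -2.34 (SE 0.37, limma adjusted p = 0.00152) in LPS against Control. Ddx21, a nucleolar helicase, had 4.66, 1.62 and 7.03 FPKM in LPS+EVs, 7.77, 1.06 and 14.4 FPKM in LPS, and 32.9, 33.4 and 33.0 FPKM in Control, a difference of -2.79 (SE 0.68, limma adjusted p = 0.0106) in LPS+EVs against Control. In both genes the treated libraries lay below all Control libraries.

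Exosc2 of the exosome, Nat10, which acetylates ribosomal RNA, Rrs1, an assembly factor of the large subunit, and Ebna1bp2, another large-subunit factor, also stood among the lowest of the list, with log2 differences of -1.9 to -2.09 in LPS against Control and -2.12 to -2.4 in LPS+EVs against Control. The 3 called higher in LPS against Control were Riok3 (329, 302 and 276 FPKM in LPS, against 99.8, 134 and 113 FPKM in Control), Sbds (55.9, 48.0 and 51.7 FPKM in LPS, against 29.9, 38.9 and 35.9 FPKM in Control) and Ddx24 (42.7, 32 and 41.7 FPKM in LPS, against 26.7, 26.8 and 27.6 FPKM in Control). Riok3 is a kinase bound to small-subunit precursors, Sbds releases a factor that keeps new large subunits from joining small ones, and Ddx24 is an RNA helicase. They were named after their values were seen.

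Myc, the activator of many of these genes, stood far lower in both treated groups. It had 5.97, 10.6 and 6.29 FPKM in LPS+EVs, 6.81, 7.07 and 5.05 FPKM in LPS, and 63.0, 56.7 and 60.2 FPKM in Control. No treated library came near Control, and the log2 difference was -3.07 (SE 0.21, limma adjusted p = 1.78e-05) in LPS against Control and -2.86 (SE 0.21, limma adjusted p = 2.6e-05) in LPS+EVs against Control. Library 2, the lowest of its group in 49 of the 53 genes in LPS+EVs and in LPS, held the highest Myc level of each of these groups. Mxd1, which competes with Myc for its partner Max and represses at the same E-boxes, went the other way. It had 212, 462 and 155 FPKM in LPS+EVs, 95.7, 531 and 43.5 FPKM in LPS, and 9.01, 10.2 and 8.01 FPKM in Control, with a log2 difference of 3.72 (SE 0.79, limma adjusted p = 0.00648) in LPS against Control. Its highest treated libraries were those numbered 2. Of this list of 14 Myc and mTOR pathway genes, 13 were tested in LPS against Control. Of these 13, 4 were called lower (Myc, Mycl, Mxd4 and Mtor), or 30.8% against 28.7% of all genes tested. The 3 called higher were Mxd1, Mxi1 and Tsc1 (23.1%, against 12.3% of all genes tested). Mxd1 and the others of that list beside Myc were singled out after their values were seen, and their part in the levels of the 53 genes was not tested.

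Ubtf, which opens the ribosomal DNA for RNA polymerase I, had 6.26, 3.72 and 7.09 FPKM in LPS+EVs, 8.08, 3.34 and 11.8 FPKM in LPS, and 20.1, 21.0 and 19.2 FPKM in Control (log2 difference in LPS against Control -1.41, SE 0.37, limma adjusted p = 0.0155). Rrn3, which recruits the polymerase to the promoter, had 16.4, 10.3 and 16.4 FPKM in LPS+EVs, 19.3, 11.7 and 19.4 FPKM in LPS, and 21.4, 18 and 21.6 FPKM in Control. Its difference in LPS against Control was -0.29 (SE 0.23, limma adjusted p = 0.344), and in LPS+EVs against Control it was -0.5 (limma adjusted p = 0.116, and 0.0119 with the replicate block). Taf1b, a subunit of the promoter-binding factor, stood at 0.575 to 0.861 FPKM and was too low to be tested.

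**Figure D4:**
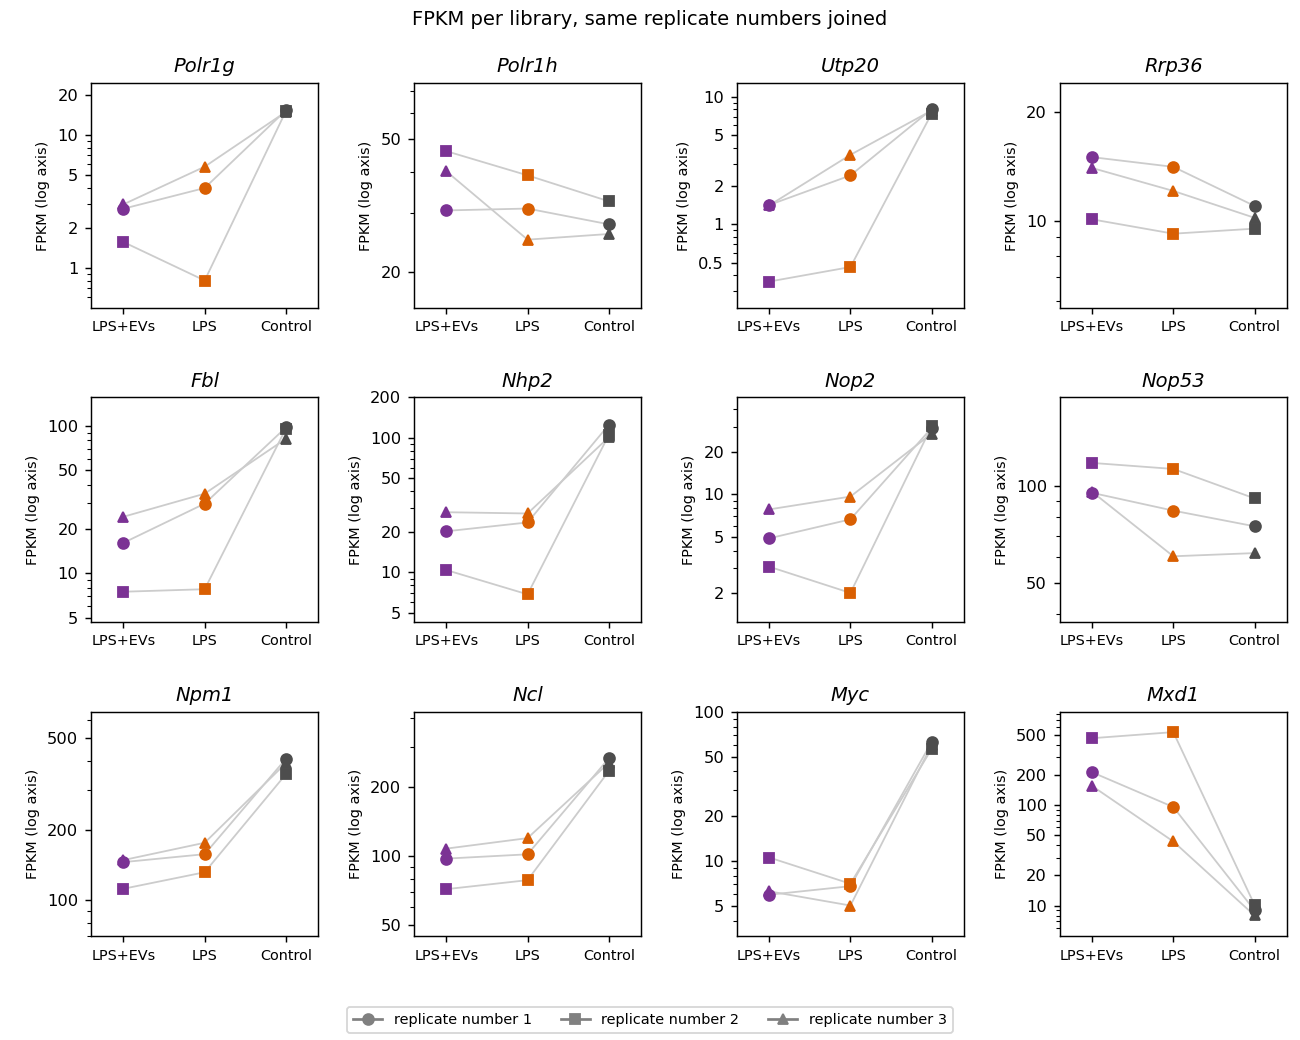
FPKM (log axis) of 10 of the 53 genes and of Myc and Mxd1 in each library, by group, with libraries of the same replicate number joined. Polr1g, Utp20, Fbl, Nhp2, Nop2, Npm1, Ncl and Myc lie below Control in all treated libraries, Polr1h, Rrp36 and Nop53 overlap between LPS and Control, and Mxd1 lies above Control in all treated libraries.

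Other measures moved with the comparisons with Control. Summed FPKM of 15 proliferation genes was 79.6, 77.4 and 95.8 in LPS+EVs, 87.1, 81.6 and 136 in LPS, and 789, 734 and 699 in Control, and 15 of 15 were called lower in each comparison with Control. Summed neutrophil and granulocyte markers (6 genes, with Mpo at 0 in 2 libraries of each treated group) ranged from 2.18 to 17.1 FPKM in LPS+EVs, from 1.24 to 6.04 FPKM in LPS and from 29.9 to 261 FPKM in Control. In LPS against Control, 3 of the 4 tested were called lower, and 2 of 4 in LPS+EVs against Control. Summed erythroid markers (3 genes) ranged from 3.67 to 8.79 FPKM in LPS+EVs, from 4.88 to 9.58 FPKM in LPS and from 54.0 to 437 FPKM in Control, mostly Hba-a2. Summed macrophage and monocyte markers (6 genes) ranged from 793 to 898 FPKM in LPS+EVs, from 660 to 796 FPKM in LPS and from 796 to 868 FPKM in Control. In each comparison with Control, 2 of these 6 were called lower (Mrc1 and Csf1r) and 1 higher (Cd68). Mrc1 stood at 9.49 to 9.98 FPKM in LPS+EVs, 8.7 to 10.2 FPKM in LPS and 114 to 192 FPKM in Control. Of all genes tested, 28.7% were called lower and 12.3% higher in LPS against Control, and 30.8% and 13.5% in LPS+EVs against Control. Markers of B cells and of T and NK cells summed to at most 0.609 FPKM in any library. The part of these cells and of proliferation in the levels of the 53 genes was not tested. The scaling of the libraries moves every gene alike: median-of-ratios scaling took the median of all genes from -0.19 to 0.00 in both comparisons with Control, and the family's medians were then -0.95 in LPS and -1.21 in LPS+EVs. Under the deposited scaling 3201 genes were called lower and 1368 higher in LPS against Control (70.1% of calls lower), and under median-of-ratios scaling 2332 and 1893 (55.2%). In LPS+EVs against Control these were 3436 and 1505 (69.5%), and 2507 and 2073 (54.7%).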

How the data were processed

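RNA sequencing of 9 cultures gave 1 table of FPKM for 20442 genes. Per the labels' protocols, total RNA was extracted with TRIzol and libraries were made with the VAHTS Universal V6 kit. Per the submitters' processing notes, the tools were HISAT2, HTSeq, fastp and R 3.2.0, with the build mRatBN7.2, and settings, strand handling and annotation version are not given in the sources used here. The deposited FPKM values were taken as the authors scaled them. FPKM are not counts, so the planned fallback for FPKM was used: limma 3.58.1 (R 4.3.3) with a trend on log2(FPKM + 1), for the 11141 genes that reached 1 FPKM in 3 or more libraries, with all 9 libraries and 1 mean per group. Adding 1 understates changes of low genes. P-values are two-sided and adjusted by Benjamini-Hochberg over all genes tested within a comparison, with a threshold of 0.05.

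FPKM steps gave whole reads, within 0.01 reads, for 18833 of the 18833 genes seen in at least 2 libraries, with totals of 32148734 to 39407293 reads. Limma-voom on these reads and leaving out the libraries numbered 2 were chosen after seeing the data. The method was tested on simulated data.

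After removal of group means, libraries of the same replicate number correlated at 0.28 to 0.86 across groups, and others at -0.74 to 0.43, so the numbers were taken to pair the cultures. This comes from the data, since the labels do not say what a number marks. A replicate block is the alternative fit.

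The genes and lists were chosen with earlier results of these data known. Described in full are, per role and comparison, the 2 genes with the highest mean FPKM and the 1 with the largest log2 difference each way, with Myc, Ubtf, Rrn3, Taf1b and up to 4 other called ribosome biogenesis genes per comparison. Further genes of the family were added for their role. Comparisons share libraries (LPS is in 2 of them, Control in 2), and no overlap between them was computed. Promoters and gene neighbours come from RefSeq (GRCr8), and no coordinates were carried over to mRatBN7.2. Tables were handled in Python 3.11.15 (numpy 2.4.6, pandas 2.3.3) and plotted with matplotlib 3.10.9.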

Additional observations from a re-analysis of the deposited data

How the results depend on the processing

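Among the alternatives run, no result changed direction past a threshold. The count of the 53 genes called lower in LPS against Control ran from 24 to 44 when single libraries were left out. It was 39 with all (28.7% of all genes tested), 25 without Control library 1 (19.9%), 27 without library 2 and 24 without library 3 (21.3%). With no filter on low FPKM it was 26. The same count in LPS+EVs against Control ran from 36 to 47, with 42 for all libraries (30.8% of all genes tested). With the replicate block the paired counts were 46 and 46 lower (35.5% and 37.4% of all genes tested). With the block, 2 genes (Nop53 and Polr1h) were called higher in LPS+EVs against Control (17.8% of all genes tested), against 0 without it (13.5%). Genes of the family called higher in LPS+EVs against Control numbered 1 with median-of-ratios scaling, where 2073 of the 11141 genes tested were called higher. They numbered 3 with the block and that scaling, and 1 without the libraries numbered 2 (16.4% of all genes tested). In LPS against Control there was 1 with the block and that scaling. Other ribosome biogenesis genes called lower in LPS against Control ran from 38 to 81 with single libraries left out. They were 43 with an added 2-fold threshold, against 1406 of the 11141 genes tested. Those called higher there (3 in the reported fit) were 5 with median-of-ratios scaling (1893 of the 11141 genes tested) and 8 with the block and that scaling. They were 5 without the libraries numbered 2 (15.9% of all genes tested) and 1 with the 2-fold threshold. In LPS+EVs against Control they were 8 with the block and that scaling and 1 with the 2-fold threshold. Where no share of all genes is given for a setting, its count is not set against one. Such counts cannot be compared between settings, since the shares that are given moved between them. The family's median in LPS+EVs against LPS ran from -0.52 to 0.03 with single libraries left out. The causes were not tested. Of the 1344 single-gene values recomputed, 25 lost and 27 gained a call, and among these genes the block changed the calls of Imp4, Nob1, Nop53, Polr1h and Rrn3. Of other genes named, it also called Polr1e, Wdr75 and Cd74 lower in LPS against Control and Mtor lower in LPS+EVs against Control. The lowest number of reads for a gene of the family in any library was 33, for Gar1, and counting error is largest at such values.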
